A study of Mus musculus with 35 samples.

Results

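Nr1d1, Nr1d2 and Rora are 3 of the 22211 genes in a table of lung messenger RNA from 35 male mice, and they were chosen by name as the genes of the REV-ERB and ROR receptors of the circadian clock. All 3 passed the filter on low values (1 or more in at least 3 libraries). The mice were 7 to 9 weeks old and their left lung lobe was frozen at ZT4 or ZT16, which is 4 or 16 hours after lights on. Wild type (WT) mice had received 3 µg per g body weight of control IgG or of anti-Ly6G (clone 1A8, an antibody to a neutrophil surface protein). Mice of the genotype MRP8-Cre;iDTR-flox had received 10 ng per g of DT (diphtheria toxin), all by injection under the skin on 2 consecutive days. In these mice the MRP8 promoter, active in neutrophils and other myeloid cells, drives Cre, which switches on the toxin receptor. There were 7 mice in each control or anti-Ly6G group, 3 of a July 2017 and 4 of a September 2017 batch. The DT groups held 4 mice at ZT4 and 3 at ZT16, all of an April 2018 batch. That batch had no control mice, so DT, genotype and batch cannot be told apart. All ZT16 mice lived in cabinets with an inverted light cycle, so time of day and housing cannot be told apart either.

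REV-ERBα (Nr1d1) and REV-ERBβ (Nr1d2) are nuclear receptors that bind haem and repress genes through corepressors such as NCOR1, which brings in HDAC3. RORα (Rora) binds the same DNA element and activates. Both kinds of receptor act on Arntl, which encodes BMAL1, and BMAL1 with CLOCK in turn activates Nr1d1 and Nr1d2 through E-boxes, so that the receptors form a loop that stabilises the clock. REV-ERBα peaks during the rest phase of mice and is known to restrain inflammation in lung epithelium and macrophages, and RORα is also needed by group 2 innate lymphoid cells.

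Nr1d1 (ENSMUSG00000020889) lies on the minus strand of GRCm38 chromosome 11, from 98767932 to 98775333, and its transcripts cover 3077 exonic bases. Of these, 263 (8.55%) overlap exons of Thra, the thyroid hormone receptor gene on the other strand. Whether the counting used strand was not given in the sources used here, so reads from the shared bases could have gone to either gene. Nr1d2 (ENSMUSG00000021775) lies on chromosome 14, 18204054 to 18239127, minus strand. Rora (ENSMUSG00000032238) spans 734 kb of chromosome 9, 68653786 to 69388246, plus strand.

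The 250 bases before the RefSeq start of the 2 REV-ERB genes are shown because these genes moved together between mice. Each of them also moved with other clock genes, as given below. They are read 5′ to 3′ on the gene's strand in GRCm38.p6, and capitals mark a match to a searched motif.
Nr1d1 promoter, chr11:98775378-98775627, minus strand: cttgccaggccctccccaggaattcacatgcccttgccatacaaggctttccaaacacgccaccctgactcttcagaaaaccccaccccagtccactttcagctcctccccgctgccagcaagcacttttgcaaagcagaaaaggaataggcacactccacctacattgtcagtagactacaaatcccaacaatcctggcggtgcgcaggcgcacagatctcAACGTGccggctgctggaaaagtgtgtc
Nr1d2 promoter, chr14:18239107-18239356, minus strand: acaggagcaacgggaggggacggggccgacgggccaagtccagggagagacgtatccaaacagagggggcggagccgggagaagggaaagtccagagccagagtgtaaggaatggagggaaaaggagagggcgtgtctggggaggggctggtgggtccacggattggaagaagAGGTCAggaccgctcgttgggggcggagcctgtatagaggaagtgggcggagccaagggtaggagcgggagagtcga
The motifs searched on both strands were the receptor half-site AGGTCA, the E-box CACGTG, the E-box variant CACGTT, and the D-box forms TTATGTAA and TTACGTAA. The Nr1d1 window held 1 CACGTT, read as AACGTG on the strand shown and starting 28 bases before the start. The Nr1d2 window held 1 AGGTCA, starting 77 bases before the start. The same search of the Rora window found none of the 5 motifs. Among 32851 promoter windows of this length, 3.85% held CACGTT and 14.0% held AGGTCA, against 6.02% for CACGTG, 0.819% for TTATGTAA and 0.113% for TTACGTAA. These matches describe letters in a short window, and binding was not measured.

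Values are the deposited normalised expression values, whose read depth is unknown. Their sums per library ran from 962649 to 1033550, and 15351 to 15802 genes per library reached a value of 1. Markers of lung cells were high in every library: Sftpc of alveolar type 2 cells ranged from 13780 to 19990 and Pecam1 of endothelium from 522 to 855, while Alb of liver averaged 1.06. One ZT4 control library of September stood apart in neutrophil transcripts, with a summed level of 11 mature neutrophil genes of 873 against a group median of 119. Levels are compared within a gene only, since it is not stated that the values are per length.

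Nr1d1 was the receptor gene that differed most between the times. In control mice at ZT4 the July libraries read 383, 454 and 415 and the September libraries 188, 193, 251 and 278. At ZT16 they read 17.5, 16.9 and 14.8 in July and 57.2, 45.7, 39.2 and 25.2 in September. Every ZT4 library was above every ZT16 library. Group means were 309 ± 108 at ZT4 and 30.9 ± 16.6 at ZT16 (SD, n = 7 each). On the log2(value + 0.5) scale Nr1d1 fell by 3.40 ± 0.31 (SE), a 10.5-fold drop, with a limma adjusted p of 1.16e-09. At an adjusted p below 0.05 limma called 9.04% of the 16786 genes tested in this comparison.

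Anti-Ly6G mice showed the same separation of Nr1d1 by time. Their ZT4 libraries read 303, 369 and 329 in July and 225, 137, 228 and 311 in September. Their ZT16 libraries read 48.9, 23.6 and 13.4 in July and 59.0, 38.7, 23.3 and 25.9 in September. The lowest ZT4 library, at 137, stood above the highest ZT16 library, at 59.0. Nr1d1 fell by 3.10 ± 0.31 (limma adjusted p = 5.67e-09), in a comparison in which 20.9% of genes were called. Exact two-sided permutation of the time labels within batch gave p = 0.00143 in control mice and again in anti-Ly6G mice, the smallest that its 1400 arrangements can give. It was run for 3 genes in 3 treatments, 9 tests in all.

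In DT mice the Nr1d1 levels of both times overlapped. The ZT4 libraries read 78.2, 115, 192 and 156, and the ZT16 libraries 136, 95.4 and 56.2. Of the 3 ZT16 libraries 1 lay below every ZT4 library and the others lay within the ZT4 range. The change of -0.51 ± 0.44 (95% interval -1.41 to 0.39) did not pass (limma adjusted p = 0.473, with 15.3% of genes called, and exact permutation p = 0.314 over 35 arrangements). The order of group means was ZT4 control, ZT4 anti-Ly6G, ZT4 DT (135), ZT16 DT (95.7), ZT16 anti-Ly6G and ZT16 control, and the ranges of each pair of neighbours in it overlapped. Levels of DT mice were not tested against the other batches. Their place in this order cannot be told apart from batch or from how the values were normalised.

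**Figure D1:**
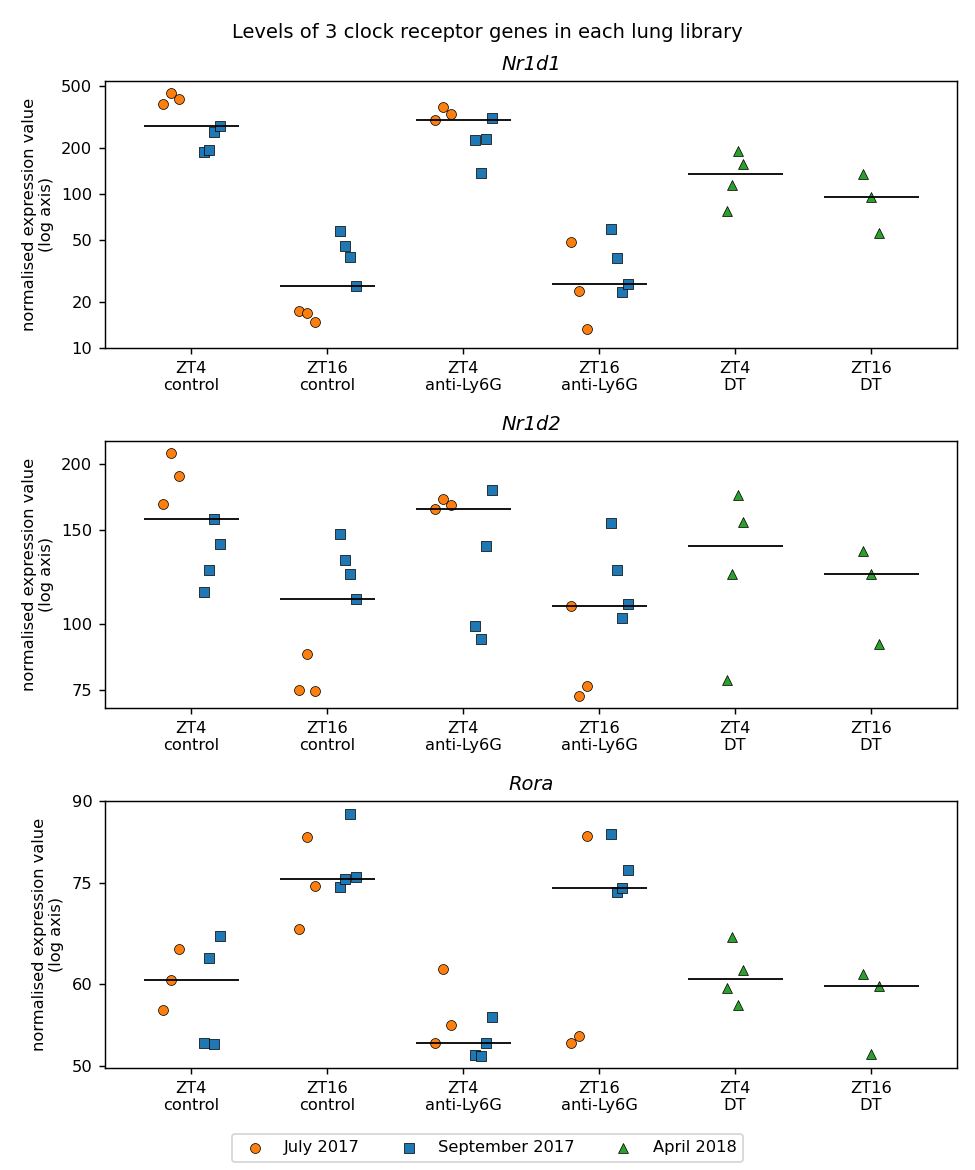
Normalised expression value of Nr1d1, Nr1d2 and Rora in each library on log axes, by group, with the batch as colour and shape and a horizontal line at the group median. Nr1d1 libraries of ZT16 lie below all ZT4 libraries in control and anti-Ly6G mice, and in DT mice 2 of 3 lie among them and 1 below, whereas Rora libraries of ZT16 lie above all ZT4 libraries in control mice.

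The time change of Nr1d1 was tested between treatments, each measured within its own batches. The estimated fall was smaller in DT mice than in control mice. The DT minus control difference was 2.89 ± 0.54 on the log2 scale (95% interval 1.79 to 3.99, limma adjusted p = 0.00114, with 13.8% of genes called). Against anti-Ly6G mice the difference was 2.59 ± 0.54 (adjusted p = 0.0012, with 19.1% of genes called). Both comparisons use the same 7 DT mice. With any 1 of the 35 libraries left out the first ran from 2.59 to 3.23 and the second from 2.30 to 2.93, and each passed every time. These values measure the spread between mice. The spread of the time change between batches is not in them, since the DT mice were of a single batch. In control mice the time change of Nr1d1 was -4.63 ± 0.37 in July and -2.47 ± 0.32 in September.

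Thra, which shares exonic bases with Nr1d1, also fell from ZT4 to ZT16, with no overlap between the times in any treatment. It fell by 0.54 ± 0.061 in control, 0.57 ± 0.061 in anti-Ly6G and 0.56 ± 0.087 in DT mice (limma adjusted p = 1.5e-07, 1.98e-08 and 5.9e-05). Its DT minus control difference in time change was -0.02 ± 0.11 (adjusted p = 0.935), where that of Nr1d1 was 2.89.

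Nr1d2, the gene of the other REV-ERB, was lower at ZT16 in the July control mice and overlapped between the times in those of September. The ZT4 control libraries of July read 168, 209 and 189.7 and the ZT16 libraries of July 75.2, 87.6 and 74.9, with no overlap. In September the ZT4 libraries read 115, 126, 158 and 141 and the ZT16 libraries 148, 132, 124 and 112. Of the 4 September ZT16 libraries 3 lay within the ZT4 range. Fitted with a mean for each group and batch, Nr1d2 fell by 1.25 ± 0.22 in July (limma adjusted p = 0.00122, with 2.95% of genes called) and changed by -0.06 ± 0.19 in September (adjusted p = 0.9, with 3.78% called).

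Anti-Ly6G mice repeated this pattern of Nr1d2. In July the ZT4 libraries read 165, 171 and 168 and the ZT16 libraries 108, 73.2 and 76.5. In September the ZT4 libraries read 99.3, 93.6, 140.3 and 178 and the ZT16 libraries 155, 126, 103 and 109. The July ranges did not overlap and all 4 September ZT16 libraries lay inside the ZT4 range. Nr1d2 fell by 0.98 ± 0.22 in July (limma adjusted p = 0.00514, with 8.33% of genes called), while the September change was -0.02 ± 0.19 (adjusted p = 0.96, with 9.73% called).

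Over both batches the Nr1d2 change was -0.57 ± 0.19 in control mice (limma adjusted p = 0.0511, exact permutation p = 0.0329) and -0.44 ± 0.19 in anti-Ly6G mice (adjusted p = 0.0979, exact permutation p = 0.0729). Adjusted over the 9 exact tests, the exact permutation p was 0.0591 and 0.109. Neither change passed, by limma or by the exact test. The control value lies at the threshold, and leaving out 1 library moved its adjusted p between 0.0306 and 0.114. It then passed without ZT4 control September 1 or 2, ZT16 control September 1 or 2, ZT4 anti-Ly6G September 1 or 2, ZT16 anti-Ly6G September 1, July 2 or July 3, or ZT4 DT April 1 or 3. The anti-Ly6G value passed only without ZT4 anti-Ly6G September 2 (lowest adjusted p 0.0434).

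The difference between batches was tested directly, with control and anti-Ly6G mice together. The fall of Nr1d2 was smaller in September than in July. The September minus July difference in its time change was 1.07 ± 0.21 (95% interval 0.65 to 1.49, limma adjusted p = 0.0246). Only 12 of 16786 genes (0.0715%) were called in this comparison, and Nr1d2 ranked at place 7 by p. The call was lost without any 1 of 10 libraries (highest adjusted p 0.0767), while the difference stayed between 1.01 and 1.16. These were ZT4 anti-Ly6G September 1 and 2 and July 1 and 2, ZT16 anti-Ly6G September 1 and July 2, ZT16 control September 1 and July 3, and ZT4 control July 2 and 3. In each treatment alone, a split chosen after seeing the data, it was 1.18 ± 0.29 in control mice (adjusted p = 0.222, with 0 genes called and 1363 at an unadjusted p below 0.05) and 0.96 ± 0.29 in anti-Ly6G mice (adjusted p = 0.44, with 0.00596% of genes called).

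For Nr1d1 the time change was smaller in September than in July, by an amount that did not pass. In the fit by batch it fell by 4.63 ± 0.37 in July and by 2.47 ± 0.32 in September in control mice (limma adjusted p = 5.37e-10 and 8.41e-06). In anti-Ly6G mice it fell by 3.71 ± 0.37 and 2.64 ± 0.32 (adjusted p = 4.8e-08 and 1.56e-06). The difference of 1.61 ± 0.34 (adjusted p = 0.0628) did not pass over all genes, and the adjusted p ran from 0.0092 to 0.121 with 1 library left out. It passed without ZT4 anti-Ly6G September 4, ZT16 anti-Ly6G September 3 or 4, July 1 or July 3, ZT16 control September 4, or either of ZT4 DT April 1 and ZT16 DT April 1.

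Arntl and Npas2, activators of the clock and targets of the receptors, had September minus July differences of the opposite sign that did not pass (-1.45 ± 0.32, limma adjusted p = 0.067, and -1.53 ± 0.38, adjusted p = 0.099). Arntl libraries of control mice read 12.7, 5.97 and 5.39 at ZT4 and 13.5, 16.3 and 10.8 at ZT16 in July. In September they read 18.0, 12.9, 13.8 and 14.6 at ZT4 and 4.82, 6.57, 10.9 and 8.12 at ZT16. The September ranges did not overlap and the higher libraries were those of ZT4, whereas 1 July library of ZT4 lay within the ZT16 range.

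**Figure D2:**
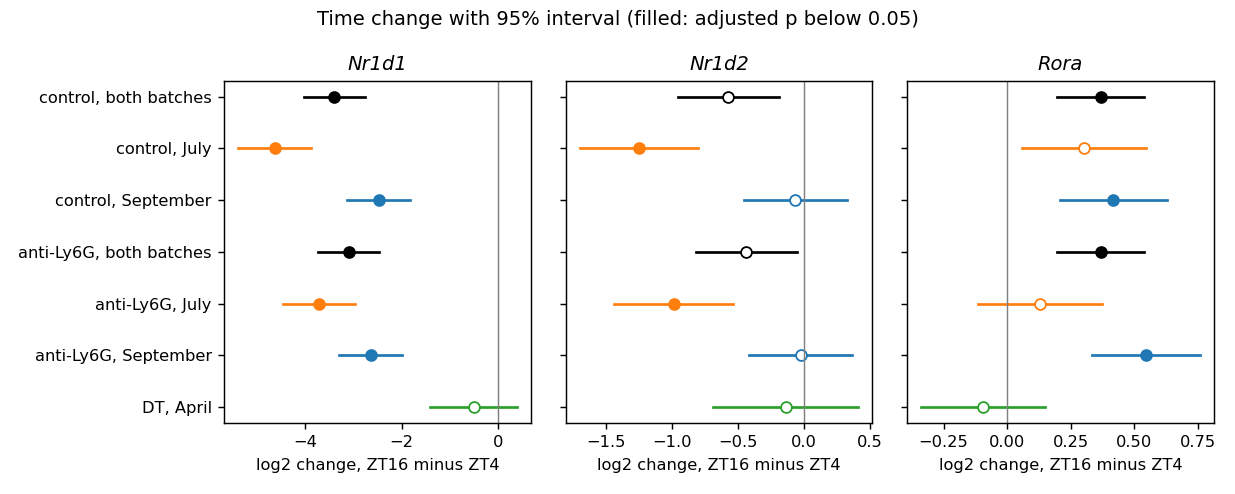
Log2 change from ZT4 to ZT16 of the 3 genes with 95% intervals from limma, for each treatment over both batches and within each batch, filled where the adjusted p over all genes is below 0.05. The Nr1d2 change is -1.25 and -0.98 in the July mice and -0.06 and -0.02 in the September mice, and the Rora change lies above 0 in control and anti-Ly6G mice and at -0.09 in DT mice.

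In DT mice Nr1d2 read 78.3, 124, 175 and 156 at ZT4 and 137, 124 and 91.7 at ZT16. All 3 ZT16 libraries lay within the ZT4 range. The change of -0.14 ± 0.27 (95% interval -0.69 to 0.41, limma adjusted p = 0.778, exact permutation p = 0.686) did not pass, and it changed sign without ZT4 DT April 3 (0.014) or ZT16 DT April 3 (0.032). Its difference from the time change of control mice was 0.43 ± 0.33 (95% interval -0.24 to 1.10) and from that of anti-Ly6G mice 0.30 ± 0.33 (-0.37 to 0.97), neither of which passed (adjusted p = 0.396 and 0.561).

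Rora, the gene of the activator RORα, moved in the other direction and over a much narrower range. In control mice the ZT4 libraries read 56.7, 60.6 and 64.8 in July and 52.6, 63.5, 52.4 and 66.7 in September. The ZT16 libraries read 67.7, 83.2 and 74.5 in July and 74.3, 75.7, 87.5 and 76.1 in September. Every ZT16 library exceeded every ZT4 library. Rora rose by 0.37 ± 0.084 on the log2 scale, 1.29-fold (limma adjusted p = 0.00409, exact permutation p = 0.00143). Within batches the rise was 0.42 ± 0.10 in September (adjusted p = 0.0182), and the July value of 0.30 ± 0.12 did not pass (adjusted p = 0.176).

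In anti-Ly6G mice Rora read 52.7, 62.1 and 54.8 in July and 51.3, 51.1, 52.6 and 55.8 in September at ZT4. At ZT16 it read 52.6, 53.4 and 83.4 in July and 83.6, 73.6, 74.2 and 77.3 in September. The 4 September libraries of ZT16 and 1 of July were above all ZT4 libraries, and the other 2 July libraries were among them. Rora rose by 0.37 ± 0.084 over both batches (limma adjusted p = 0.00187, exact permutation p = 0.0129, or 0.0289 adjusted over the 9 exact tests). The exact call was lost without ZT4 anti-Ly6G September 1, 3 or 4 or ZT16 anti-Ly6G September 1, with p adjusted over the 9 tests up to 0.0579. The batch values were 0.55 ± 0.10 in September (adjusted p = 9.2e-04) and 0.13 ± 0.12 in July (adjusted p = 0.554). Their difference with control mice included, 0.27 ± 0.11 higher in September, did not pass (adjusted p = 0.313), but did without ZT16 anti-Ly6G July 3, the library at 83.4 (0.37, adjusted p = 0.0384).

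In DT mice the Rora levels of both times overlapped. They read 59.4, 66.5, 57.3 and 61.8 at ZT4 and 61.3, 51.3 and 59.7 at ZT16, with 1 ZT16 library below the ZT4 range and the others in it. The change was -0.09 ± 0.12 (95% interval -0.34 to 0.15, limma adjusted p = 0.643, exact permutation p = 0.4). The time change was lower in DT than in control mice by 0.46 ± 0.15 (log2, difference -0.46, adjusted p = 0.0328) and differed from that of anti-Ly6G mice by -0.46 ± 0.15 (adjusted p = 0.0254). The first call was lost without ZT4 control September 1 or 3, ZT16 control July 2, ZT4 DT April 1 or 2 or ZT16 DT April 2, with adjusted p up to 0.117 and differences from -0.51 to -0.38. The second was lost without ZT4 DT April 2 or ZT16 DT April 2, with adjusted p up to 0.0975.

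Markers of some other lung cells moved with time in the same DT mice. In whole lung, fewer cells of a type and less RNA per cell cannot be told apart. Of 7 endothelial markers 4 fell and 0 rose with time in DT mice (median log2 change -0.44, against -0.01 over all genes, of which 9.98% fell), and their summed level was 3239 to 3805 at ZT4 and 2423 to 2684 at ZT16. Of 7 alveolar type 2 markers 4 fell and 0 rose in DT mice (median -0.50), with summed levels of 23270 to 28439 at ZT4 and 23289 to 25902 at ZT16. All 4 club cell markers rose (median 0.51, where 5.3% of all genes rose). Their summed levels were 24938 to 32426 at ZT4 and 37208 to 45852 at ZT16. Of 8 fibroblast markers 2 fell and 0 rose in DT mice, the same counts as in control mice. Of 6 alveolar macrophage and 6 heart muscle markers 0 rose or fell in DT mice. In control mice 1 endothelial marker rose and 0 fell, and 1 club cell marker and 2 alveolar type 2 markers fell and 0 of either list rose. Of all genes 4.65% rose and 4.38% fell there. After anti-Ly6G 3 endothelial markers rose and 0 fell, 2 alveolar type 2 markers rose and 3 fell, and 0 club cell markers rose or fell. Of all genes 10.6% rose and 10.4% fell in that comparison. The table holds 0 zeros, so no marker was at 0. The part of these cell types in the DT values of Rora and Nr1d1 was not tested.

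Lymphocyte markers fell with time more often than all genes in control and anti-Ly6G mice, and about as often as all genes in DT mice. In control mice 3 of 10 T cell, 4 of 8 natural killer and 3 of 7 B cell markers fell and 0 rose, where 4.38% of all genes fell. In anti-Ly6G mice 6 of 10, 5 of 8 and 5 of 7 fell and 0 rose, where 10.4% of all genes fell. In DT mice, in which Rora did not pass, 1 marker of each list fell and 0 rose, with median changes of -0.22, -0.26 and -0.44 and 9.98% of all genes lower. The summed T cell level of control mice was 63.3 to 90.8 at ZT4 and 53.2 to 80.2 at ZT16, and in anti-Ly6G mice 73.6 to 97.0 and 58.8 to 82.8. Natural killer sums were 28.6 to 39.1 and 18.0 to 26.7 in control mice and 32.1 to 62.0 and 20.5 to 32.5 in anti-Ly6G mice, and B cell sums 40.7 to 112 and 28.0 to 72.5, and 61.4 to 143 and 34.3 to 78.2. Of 8 group 2 innate lymphoid markers tested, 1 rose and 0 fell in control mice, where 4.65% of all genes rose. After anti-Ly6G 2 rose and 1 fell, where 10.6% of all genes rose, and in DT mice 0 rose and 0 fell. The median changes were 0.01, -0.08 and -0.11. Sums at ZT4 and ZT16 were 48.4 to 65.7 and 55.9 to 85.1 in controls and 55.0 to 66.2 and 60.2 to 106 after anti-Ly6G. In DT mice they were 61.1 to 87.2 and 62.2 to 69.9. The part of these cells in the Rora values was not tested.

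Anti-Ly6G made no difference that passed in any of the 3 genes. At ZT4 the log2 difference from control was -0.17 ± 0.31 for Nr1d1 (95% interval -0.80 to 0.46), -0.14 ± 0.19 for Nr1d2 (-0.52 to 0.25) and -0.13 ± 0.084 for Rora (-0.30 to 0.04). At ZT16 it was 0.13 ± 0.31 for Nr1d1 (-0.50 to 0.76), 0.00 ± 0.19 for Nr1d2 (-0.39 to 0.38) and -0.13 ± 0.084 for Rora (-0.30 to 0.04). The time change differed from that of control mice by 0.30 ± 0.44 for Nr1d1 (-0.59 to 1.19), 0.14 ± 0.27 for Nr1d2 (-0.41 to 0.68) and 0.00 ± 0.12 for Rora (-0.24 to 0.24). The intervals for Nr1d1 are wide enough to hold a difference of more than 1.5-fold at either time. limma called 0 of 16786 genes (0%) in each of these comparisons, with 1185, 701 and 1007 genes at an unadjusted p below 0.05. Neutrophil transcripts were not called either. Of 10 mature neutrophil markers tested, 8 at ZT4 and 3 at ZT16 had an unadjusted limma p below 0.05. Their median log2 differences from control were -1.05 and -0.50. Over the 11 neutrophil genes the ZT4 sums were 89.6 to 873 in control (median 119) and 72.8 to 113 after anti-Ly6G (median 96.5). At ZT16 they were 55.2 to 124 (median 82.8) and 44.2 to 72.3 (median 57.7). The part of the September control library at 873 in the ZT4 difference was not tested.

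Among mice of the same group, batch and time, Nr1d1 and Nr1d2 went up and down together. After each library was set against the mean of its group and batch, Pearson's r was 0.906 over 18 ZT4 libraries (Spearman's rho 0.895, permutation p = 5.0e-05, adjusted over 12 relations 6.0e-04). It was 0.912 over 17 ZT16 libraries (rho 0.892, permutation p = 1.6e-04, adjusted 7.6e-04). Without the 2 libraries farthest from the median of Nr1d1 the values were 0.838 and 0.929. Within batches r was 0.781 (July, 6 libraries) and 0.831 (September, 8 libraries) at ZT4, and 0.795 and 0.985 at ZT16. Other clock genes were as close to them. Over all 35 libraries, set against the same means, r of Nr1d1 was 0.843 with Nr1d2 and 0.889 with Dbp. That of Nr1d2 was 0.917 with Per3, 0.868 with Tef and 0.841 with Dbp.

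The REV-ERB genes ran opposite to Arntl between mice, most clearly at ZT4. There r was -0.886 for Nr1d2 (rho -0.831, permutation p = 1.9e-04, adjusted 7.6e-04) and -0.789 for Nr1d1 (rho -0.643, permutation p = 7.0e-04, adjusted 0.0021). Leaving out the 2 farthest libraries gave -0.823 and -0.610. The within-batch values at ZT4 were -0.829 and -0.916 for Nr1d2 and -0.568 and -0.759 for Nr1d1 in July and September. At ZT16 the relation of Nr1d1 had r = -0.637 (adjusted permutation p = 0.0477) and rho = -0.574 (adjusted permutation p = 0.0789), and r was -0.535 without the 2 farthest libraries and -0.751 and -0.716 within July and September. That of Nr1d2 did not pass (r = -0.559, adjusted permutation p = 0.083) and was -0.275 without the 2 farthest. None of the 6 relations of Rora with Nr1d1, Nr1d2 or Arntl passed, with r from -0.370 to 0.355 and adjusted permutation p from 0.21 to 0.876.

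**Figure D3:**
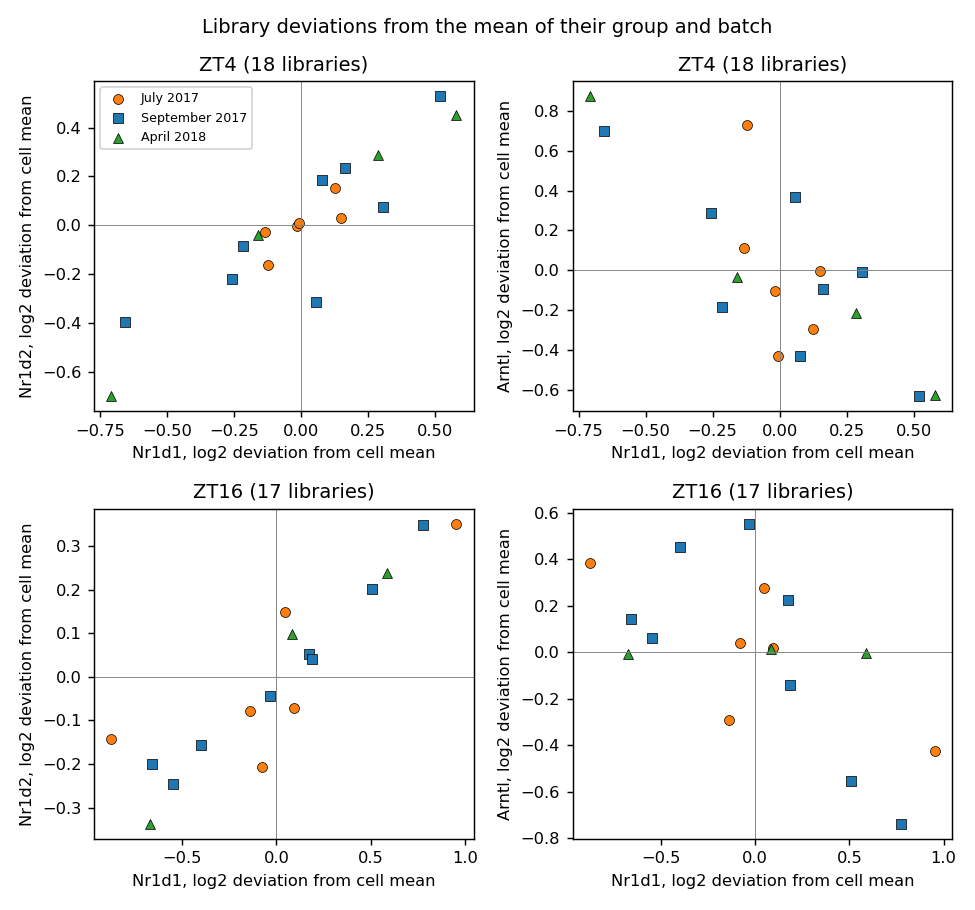
Each point is a library, placed by its log2 deviation of Nr1d1 (horizontal) and of Nr1d2 or Arntl (vertical) from the mean of its own group and batch, called the cell mean on the axes, with ZT4 above and ZT16 below. Nr1d2 follows Nr1d1 at both times with r of 0.906 and 0.912, and Arntl runs opposite with r of -0.789 and -0.637.

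Single libraries make this visible. The ZT4 DT library lowest in Nr1d1 (78.2) was also the lowest of its group in Nr1d2 (78.3) and in Dbp (12.4), an output gene of the clock, and the highest in Arntl (24.7). The library highest in Nr1d1 (192) was the highest in Nr1d2 (175) and Dbp (70.0) and the lowest in Arntl (8.39). Among the September anti-Ly6G mice of ZT4 the library at 137 for Nr1d1 had the lowest Nr1d2 (93.6) and Dbp (19.5) and the highest Arntl (28.2). Rora read 59.4 and 57.3 in the 2 DT libraries, the second of them the lowest of its group. In the anti-Ly6G library it read 51.1, the lowest of its group, with the next at 51.3.

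The genes most like each receptor were ranked by Pearson's r of log2 values over all 35 libraries among 8159 genes, as a description, since the libraries fall into clusters by time and share their batches. Nr1d1 was most like Dbp (r = 0.926), Anxa7 (0.912), Zfp346 (0.910), Gabpb1 (0.859) and Avpi1 (0.855), and least like Gsta3 (-0.931), Ces1d (-0.896), Fmo2 (-0.892), Ivd (-0.883) and Abca8a (-0.865). After the means of group and batch were subtracted, only Dbp among these 10 kept an r above 0.6 with Nr1d1 (0.889), and Anxa7 was at 0.520 and Gsta3 at -0.350. Nr1d2 was most like Dbp (0.868), Srsf3 (0.773), Nras (0.731), Acap3 (0.725) and Anxa7 (0.722), and least like Ptpru (-0.785), Gdpd2 (-0.750), Rasl11a (-0.746), Snd1 (-0.736) and Dtx4 (-0.723). Nr1d1 itself stood second in the ranking of Nr1d2 (r = 0.778, with 1 gene higher), and in that of Nr1d1 there were 37 genes higher than Nr1d2. Rora was most like Nebl (0.897), Timp3 (0.881), Usp54 (0.870), Lmo7 (0.848) and Spag9 (0.842), and least like Arap1 (-0.823), Coro1a (-0.803), Ehbp1l1 (-0.802), Acsf2 (-0.793) and Pdzk1ip1 (-0.784). Within group and batch the 5 genes most like Rora over all libraries had r between 0.576 and 0.776 with it.

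Of the core clock list, 19 of 20 genes were tested. With time 4 rose and 2 fell in control mice, 8 rose and 2 fell in anti-Ly6G mice, and 2 rose (Cry1 and Per2) and 0 fell in DT mice, with median changes of 0.10, 0.09 and 0.18 against 0.00, -0.02 and -0.01 over all genes. Of all genes, 4.65% rose and 4.38% fell in control mice, 10.6% and 10.4% in anti-Ly6G mice, and 5.3% and 9.98% in DT mice. Per2, which encodes a repressor of BMAL1 and CLOCK, rose by 1.29 ± 0.23, 1.77 ± 0.23 and 1.04 ± 0.33 (limma adjusted p = 2.7e-04, 8.3e-07 and 0.030). Rorb, the gene of RORβ, did not pass the filter on low values, and its highest library was at 0.71.

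Cry1, a repressor of the clock and a REV-ERB target, rose 2.84-fold in control, 3.54-fold in anti-Ly6G and 2.3-fold in DT mice (limma adjusted p = 2.2e-15, 1.0e-17 and 3.2e-08). Dbp, an output gene driven by BMAL1 and CLOCK like Nr1d1, fell by 2.19 ± 0.37 in control and 1.67 ± 0.37 in anti-Ly6G mice (adjusted p = 1.3e-04 and 0.0014) and changed by 0.03 ± 0.53 in DT mice (adjusted p = 0.98). Its DT minus control difference was 2.22 ± 0.65 (adjusted p = 0.021) and its DT minus anti-Ly6G difference 1.70 ± 0.65 (adjusted p = 0.06).

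**Figure D4:**
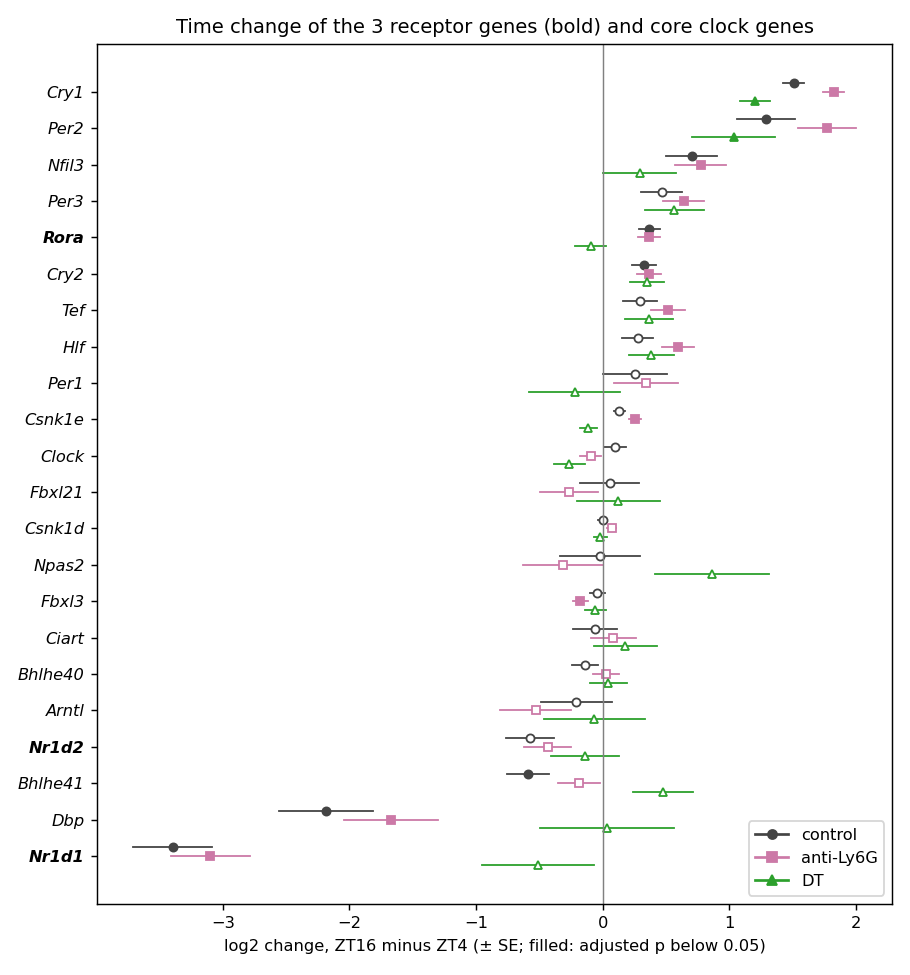
Log2 change from ZT4 to ZT16 with its SE for Nr1d1, Nr1d2 and Rora (bold) and 19 core clock genes in control, anti-Ly6G and DT mice, ordered by the change in control mice and filled where the adjusted p over all genes is below 0.05. Nr1d1 and Dbp stand lowest in control mice and lie at -0.51 and 0.03 in DT mice, while Cry1 and Per2 are above 1 in all 3 treatments.

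Genes known as targets of the receptors were called about as often as all genes. Of 29 listed from work in liver, lung and macrophages, 25 were in the table and 24 were tested. With time 2 rose and 1 fell in control mice, 4 rose and 1 fell in anti-Ly6G mice, and 2 rose and 2 fell in DT mice, with medians of -0.01, -0.07 and -0.03. Of all genes 9.04%, 20.9% and 15.3% were called in these comparisons. In control mice the 3 were Cry1 and the transcription factor gene Nfil3 (0.70 ± 0.20, limma adjusted p = 0.022), which rose, and the protease gene Mmp9 (-1.24 ± 0.29, adjusted p = 0.0049), which fell and is also one of the neutrophil markers. The neutrophil marker sum, of which Mmp9 is part, was 873 in 1 ZT4 control library against a group median of 119. The part of that library in the fall of Mmp9 was not tested. Arntl did not pass in any treatment (-0.21 ± 0.28, -0.53 ± 0.28 and -0.07 ± 0.40). The endothelial lipase gene Lipg rose by 0.45 ± 0.079 in anti-Ly6G mice (adjusted p = 8.8e-05) and fell by 0.72 ± 0.11 in DT mice (adjusted p = 5.9e-05).

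Cofactors are the proteins through which the receptors repress or activate. Of 13 cofactor genes tested, 0 passed limma's test in control mice (3 had an unadjusted p below 0.05), 3 rose in anti-Ly6G mice and 3 fell in DT mice, with medians of 0.07, 0.08 and -0.15, where 9.04%, 20.9% and 15.3% of all genes were called. Ncor1, a corepressor of REV-ERB, rose by 0.25 ± 0.060 in anti-Ly6G mice (limma adjusted p = 0.0031). The coactivator genes Ncoa2 and Ncoa3 fell by 0.25 ± 0.072 and 0.27 ± 0.090 in DT mice (adjusted p = 0.017 and 0.039). The time change was lower in DT than in control mice for 4 of the 13, where 8.86% of all genes were lower: Ncor1 (-0.38 ± 0.10), Ncoa2 (-0.30 ± 0.087), Ncoa3 (-0.38 ± 0.11) and Ep300 (-0.38 ± 0.12). The median over the 13 was -0.17, against 0.00 over all genes. Hdac3 did not pass in any treatment.

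The last lists hold genes for the turnover of REV-ERBα, for its ligand haem and for clock output, to be read against the same shares of all genes (9.04%, 20.9% and 15.3% called). Of 8 turnover genes 2 rose with time in control mice (Cry1 and the ubiquitin ligase gene Mycbp2, 0.17 ± 0.050, limma adjusted p = 0.024), 2 rose in anti-Ly6G mice, and 1 rose and 3 fell in DT mice, with medians of 0.06, 0.07 and -0.20. Of 12 haem genes 1 rose in control mice (Cpox, 0.19 ± 0.062, adjusted p = 0.0495), 3 rose and 1 fell in anti-Ly6G mice and 1 rose in DT mice (Ppox, 0.26 ± 0.092, adjusted p = 0.0485), with medians of 0.07, 0.04 and 0.03. Alas1, which encodes the first enzyme of haem synthesis, rose in anti-Ly6G mice by 0.39 ± 0.099 (adjusted p = 0.00512). Of 12 output genes known to be regulated with Nr1d1, 3 rose and 2 fell in control mice, 7 rose and 1 fell in anti-Ly6G mice, and 2 rose in DT mice, with medians of 0.29, 0.55 and 0.33. Most of these output genes are also in the core clock list, so the counts of both lists share calls.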

How the data were processed

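PolyA RNA of the lung was amplified (Ovation Single Cell kit) before Illumina library preparation, per the labels' protocols. Per the submitters' processing notes the tools included kallisto 0.43.1, RSEM 1.2.20, cutadapt and CASAVA 1.8.2, and the genome build was GRCm38, with no role or order given. The authors deposited 1 table of normalised expression values, a signal without zeros that is neither counts nor CPM; how it was normalised or adjusted for batch was not given in the sources used here. When the difference between September and July was divided by its standard error, the SD over genes was 0.511, a narrower spread than sampling error alone gives, so standard errors may be too small. No counting interval is given, since read depth is unknown. Columns named a group and a batch but no single sample, so libraries are numbered in table order and pair nothing. Each library was treated as 1 mouse, as the design text implies, and p-values measure the spread between mice.

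A gene was tested if 3 or more libraries reached a value of 1, which left 16786 genes. limma 3.58.1 in R 4.3.3, with trend, was run on log2(value + 0.5) with group means and a September term (28 residual degrees of freedom), or with a mean per group and batch for batch values (25), and two-sided p-values were adjusted by Benjamini-Hochberg over these genes (threshold 0.05). The log2(value + 0.5) scale understates changes of low genes. Exact permutation ran within treatment and batch, and relations were permuted within group and batch with 100000 resamples. The scripts were tested on simulated data. Gene IDs were placed with GENCODE annotation of GRCm38, and promoter sequences are from RefSeq, GRCm38.p6 (3 of 3 genes matched). The 3 genes, the lists, tests and alternatives were chosen with earlier results of these data known. Named are the 3 genes, core clock genes on which a result turns, up to 4 genes of smallest p per other list and time comparison, and the 5 most and 5 least like genes of each receptor among usual symbols at or above the median level. The 4 cofactors lower in DT mice were named after their values were seen. Some genes are not reported here and were left out of the lists and rankings. Alternatives were the pseudocount (0.1, 1), the filter, scaling, batch term, groups in the fit, trend, library weights, single batches and each library left out.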

Additional observations from a re-analysis of the deposited data

Results flagged for a closer look

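In the 15 groups of 4 to 10 libraries tested for a library far from the others, 1 stood out: Rora in ZT4 anti-Ly6G mice, whose highest library (July 2) was at 62.1 when the other 6 lay between 51.1 and 55.8. Chance singles out about 1 in 20 such groups.

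The time change differed between treatments for Nr1d1, by 2.89 (DT minus control) and 2.59 (DT minus anti-Ly6G) on the log2 scale, and for Rora, by -0.46 in both comparisons. All 4 values come from limma's test of the difference itself, share the 7 DT mice, and set an April batch of another genotype against July and September batches.

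The Nr1d2 time change differed between batches by 1.07 (September minus July), by the same kind of test.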

How the results depend on the processing

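Beside leaving out libraries, 300 values were recomputed under another setting, and 279 kept their direction and their side of the threshold. The time change of Nr1d2 in control mice, -0.57, passed with the stricter filter (limma adjusted p = 0.0454), without the batch term (0.0458) and with only the groups compared (0.0356). In July alone it was -1.25 in control and -0.98 in anti-Ly6G mice and passed, and that of Rora, 0.30 and 0.13, did not. The September minus July difference passed for Nr1d1 with only the groups compared (1.61, adjusted p = 0.0386) and did not for Nr1d2 without the trend (1.07, adjusted p = 0.081) or, in splits added after seeing the data, in control (1.18) or anti-Ly6G mice (0.96) alone. Values that changed sign were all uncalled: the anti-Ly6G difference of Nr1d2 at ZT16 under median-of-ratios scaling (0.0038) and in July (0.097), that of Nr1d1 at ZT16 in September (-0.22), the anti-Ly6G minus control time change of Rora under scaling (0.011), library weights (0.024) and in September (0.13) and of Nr1d1 in September (-0.17), and at ZT16 the relations of Nr1d1 with Rora without the 2 farthest libraries (0.140) and, centred on the group alone, of Nr1d2 with Rora (0.289) and Rora with Arntl (-0.102). The cause was not tested.

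With 1 library left out, 981 of 1050 values kept direction and side. The lowest and highest log2 values of the results that did not are given here as ranges. The Nr1d2 time change ran from -0.65 to -0.49 in control mice, from -0.54 to -0.35 in anti-Ly6G mice and from -0.37 to 0.032 in DT mice. The same exact-test differences ran from -0.65 to -0.49, -0.54 to -0.35 and -0.37 to 0.032, and that of Rora in anti-Ly6G mice from 0.30 to 0.43. The anti-Ly6G minus control difference at ZT16 ran from -0.033 to 0.32 for Nr1d1 and from -0.095 to 0.080 for Nr1d2, and that of the Rora time change from -0.051 to 0.065. The Rora time change differed by -0.51 to -0.38 (DT minus control) and -0.53 to -0.38 (DT minus anti-Ly6G). September minus July ran from 1.40 to 1.85 for Nr1d1, 1.01 to 1.16 for Nr1d2 and 0.21 to 0.37 for Rora. No paired analysis was possible because the columns of the table carry numbers that differ from those of the labels, so no number ties a library of one group to a library of another.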
